A study of Mus musculus with 19 samples.

Results

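The genes described here are Igf1 and 7 other growth factor genes that microglia are known for or can express: Tgfb1, Pdgfa, Pdgfb, Vegfa, Hbegf, Csf1 and Gdf15. They were chosen by gene symbol, and all 8 were found among the 16941 genes of the count tables. All 8 also passed the filter on low counts, which kept 14113 genes for testing. Levels are CPM, a library's counts scaled to a common total, and are given for every library.

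Cortical microglia, the brain's own macrophages, had been isolated from C57BL/6 mice at 10 to 11 months of age. The animals were wild type (WT) or carried a transgene for human amyloid precursor protein with the Swedish and Indiana familial Alzheimer mutations under a PDGF promoter (APP, hAPPJ20 line). Every culture, controls included, was kept for 4 weeks in 10% serum and M-CSF at 5 ng/mL, the protein that Csf1 encodes. It was then given lipopolysaccharide (LPS) at 100 ng/mL or vehicle alone for 6 h, followed by fresh medium for 16 h. The groups were WT vehicle (4 libraries), WT LPS (5), APP vehicle (5) and APP LPS (5). The series title places the work in the question of how APP microglia act under inflammation. The design therefore compares LPS with vehicle in either genotype, APP with WT under either treatment, and the LPS responses of the genotypes with each other.

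As background, Igf1 encodes insulin-like growth factor 1, a survival and growth signal for neurons and oligodendrocytes that microglia make in development and in reactive states. Tgfb1 encodes transforming growth factor beta 1, which holds microglia in their resting identity and is released from a latent complex before it acts. Csf1 encodes the growth factor on which microglia depend for survival through the receptor Csf1r. LPS, from the outer membrane of bacteria, acts on Toll-like receptor 4 and through it on NF-kB, a transcription factor of inflammatory genes.

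Consecutive library numbers in the labels joined 18 of the libraries into 9 vehicle and LPS pairs, 5 from APP and 4 from WT. In the APP groups these pairs had the same replicate number in the titles, and in every APP pair the deviations of the 2 libraries from their group means correlated across genes at more than 0.1 (Pearson r from 0.130 to 0.352). In the WT groups the titles number the replicates differently, and the r of the pairs by library number was 0.120, 0.151, 0.0959 and 0.292, so that 1 WT pair, libraries 41 and 42, lay under that limit. The labels do not say that a pair shares an animal or a culture, nor that replicates come from separate ones. The p-values then measure only how far these libraries vary, and some of that may be technical. WT LPS replicate 1 had no partner and entered no paired value. Library totals ran from 13065257 to 31248988 counts, and the smallest count of any of the 8 genes in any library was 270.

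The 4 libraries numbered 57 to 60, 1 in each group, stood apart. Their summed level of 18 microglia and macrophage markers was 1616 to 3598 CPM, against 5294 to 10721 CPM in the 15 others. The sum of 5 border-associated macrophage markers was 612 to 1394 CPM in libraries 57 to 60 and 1014 to 5619 CPM in the 15 others. The summed level of 12 fibroblast, pericyte and smooth muscle markers was 2608 to 5592 CPM in them and 1246 to 4336 CPM in the others. Astrocyte, endothelial, oligodendrocyte and neuronal markers were low throughout, with Gfap at 0 in 11 libraries, Cldn5 at 0 in 15, Olig2 at 0 in 15 and Rbfox3 at 0 in 18. The homeostatic microglia genes P2ry12 and Tmem119 were at 0 in 6 and in 3 of the 19 libraries. In bulk RNA, fewer cells of a type and less RNA per cell cannot be told apart.

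For the 2 genes whose level changed in the paired fit given further on, Igf1 and Csf1, the 300 bases around the RefSeq transcription start are shown, to set out which letters that myeloid or LPS-activated factors are known to bind lie there. They are credited to RefSeq, build GRCm38.p6, and are written 5′ to 3′ on the strand of the gene, 250 bases before the start and 50 after it. Of the 8 genes, 6 had such a window in the table used, and Pdgfb and Hbegf had none. The Igf1 window is chr10:87860861-87861160 on the plus strand, inside the gene as GENCODE M21 annotates it on GRCm38 (chr10:87858265-87937042). Capitals mark GAGGAA, the core that the myeloid factor PU.1 binds, and TGAATCA, a match to the AP-1 motif TGANTCA.
Igf1: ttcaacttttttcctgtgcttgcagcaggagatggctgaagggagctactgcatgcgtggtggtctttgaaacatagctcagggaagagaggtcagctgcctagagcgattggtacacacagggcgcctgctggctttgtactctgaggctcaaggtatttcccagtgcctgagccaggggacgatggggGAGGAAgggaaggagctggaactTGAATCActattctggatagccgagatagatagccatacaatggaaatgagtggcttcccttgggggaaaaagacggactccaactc
The Csf1 window is chr3:107760420-107760719 on the minus strand and spans the 5′ end of the annotated gene (chr3:107741048-107760469). Capitals mark a match to the NF-kB consensus, which reads on the opposite strand.
Csf1: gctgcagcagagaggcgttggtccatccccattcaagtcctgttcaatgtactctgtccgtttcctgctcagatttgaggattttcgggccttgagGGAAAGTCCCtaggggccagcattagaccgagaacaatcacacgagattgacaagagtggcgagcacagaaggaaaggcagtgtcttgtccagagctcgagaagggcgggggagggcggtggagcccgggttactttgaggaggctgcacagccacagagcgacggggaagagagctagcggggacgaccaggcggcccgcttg
Both strands were searched, and none of the marked matches overlaps another. The PU.1 core was in 28.3%, the AP-1 motif in 7.81% and the NF-kB consensus in 4.51% of the 32851 RefSeq windows of this length. In the Igf1 window the PU.1 core began 60 bases and the AP-1 match 37 bases before the start, and no NF-kB match was found. In the Csf1 window the NF-kB match began 154 bases before the start. The windows are 52.3% and 58.7% G and C. Genes that were not called had such matches too. A Vegfa window held an NF-kB match that began 118 bases before the start, and windows of Pdgfa, Vegfa and Gdf15 held PU.1 cores. A match describes the letters only.

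Igf1 was lower with LPS in 9 of 9 pairs, and the fitted level within pairs fell by 57.5% on average over the genotypes. In the APP pairs its level went from 752 CPM with vehicle to 333 with LPS in libraries 3 and 4, from 644 to 196 in 7 and 8, from 791 to 283 in 11 and 12, from 537 to 258 in 51 and 52, and from 87.3 to 28.6 in 59 and 60. In the WT pairs it went from 992 to 321 CPM in libraries 9 and 10, from 651 to 236 in 21 and 22, from 686 to 596 in 41 and 42, and from 140 to 72.9 in 57 and 58, and the unpaired WT LPS library had 319 CPM. Every LPS library thus lay below its partner, at 30.3 to 48.1% of it in APP and at 32.4 to 86.9% of it in WT, with libraries 41 and 42 the pair that moved least. Of all genes tested, 1.06% were lower in all 9 pairs.

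**Figure D1:**
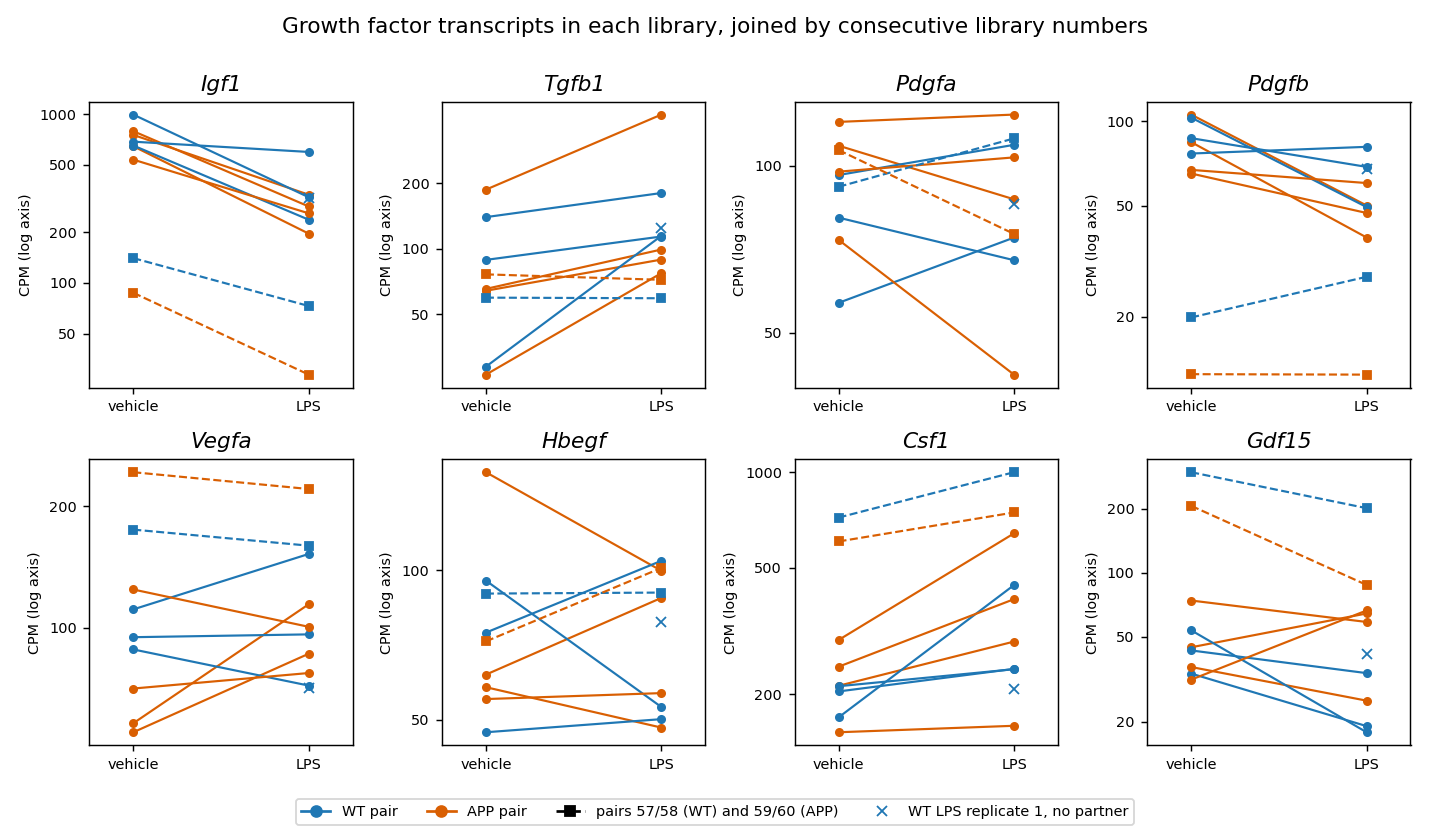
Level of each of the 8 growth factor genes in every library (vertical log axis, CPM) with vehicle and with LPS (horizontal axis). Points are libraries, lines join consecutive library numbers, blue is WT and orange is APP, dashed lines with squares are the pairs 57 and 58 and 59 and 60, and the cross is the WT LPS library with no partner. All 9 lines of Igf1 go down and all 9 lines of Csf1 go up, while each of the other genes has lines in both directions.

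The groups themselves overlapped for Igf1 and for each of the other genes, as they did for all but 1.3% of the genes tested in WT and all but 0.588% in APP. Igf1 averaged 617 ± 353 CPM (SD, n = 4) in WT vehicle and 309 ± 190 CPM (SD, n = 5) in WT LPS libraries. It averaged 562 ± 284 CPM (SD, n = 5) in APP vehicle and 220 ± 118 CPM (SD, n = 5) in APP LPS libraries. The vehicle libraries 57 and 59 lay below every LPS library outside this set. Without libraries 57 to 60 the Igf1 ranges separated in both genotypes, at 537 to 791 CPM in APP vehicle and 196 to 333 CPM in APP LPS, and at 651 to 992 CPM in WT vehicle and 236 to 596 CPM in WT LPS libraries. Among all genes tested, 1.93% in APP and 2.59% in WT were lower with LPS without overlap in those 15 libraries.

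The fit over the 4 groups, edgeR's quasi-likelihood test with Benjamini-Hochberg adjustment over all genes tested, called none of the 8 genes in any comparison. It gave Igf1 a log2 change with LPS of −1.0 ± 0.62 (SE; adjusted p = 1) in WT, −1.36 ± 0.60 (adjusted p = 0.974) in APP and −1.18 ± 0.43 (unadjusted p = 0.0120, adjusted p = 0.629) averaged over genotypes. That fit called 0% of all genes with LPS in WT or in APP alone, where 3.66% and 4.81% had an unadjusted p under 0.05. Averaged over genotypes it called 0.0213%, with Il1b and Tnf among the 3 genes, and 6.15% had an unadjusted p under 0.05. DESeq2 called 89 genes in WT, 76 in APP and 178 averaged over genotypes, and none of them was among the 8.

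With the library pair as a block in the same test, on the 18 paired libraries, Igf1 fell in both genotypes. Its log2 change was −1.41 ± 0.17 (SE; adjusted p = 5.79e-04) in APP, −1.06 ± 0.19 (adjusted p = 0.0240) in WT and −1.24 ± 0.13 (adjusted p = 2.95e-05) averaged over genotypes. The paired fit called 0.583% of the 14068 genes tested in APP, 0.142% in WT and 1.49% averaged over genotypes. Its median log2 change over all genes was −0.11 in APP, 0.03 in WT and −0.13 for the difference between the genotypes, and the Igf1 values are not corrected for it. In the fit over the groups without libraries 57 to 60 the averaged Igf1 change passed as well (−1.22 ± 0.19, adjusted p = 0.0123), where 0.22% of all genes were called. Within a genotype it did not pass there, at −1.35 ± 0.26 (adjusted p = 0.0836) in APP and −1.08 ± 0.28 in WT. In the paired fit the Igf1 change differed between the genotypes by −0.35 ± 0.25 on the log2 scale (adjusted p = 1), which did not pass the threshold. When 1 pair at a time was left out, the averaged Igf1 change and the APP change stayed past the threshold in 9 of 9 fits, and the WT change in 6 of 9; it was lost without libraries 9 and 10 (adjusted p = 0.179), 21 and 22 (adjusted p = 0.255) and 57 and 58 (adjusted p = 0.0624). With the WT libraries fitted alone the WT adjusted p was 0.210, and with title replicate numbers in place of library numbers it was 1. For APP these 2 settings gave an adjusted p of 0.00326 and 0.349. The title numbers leave the APP pairs as they were, and the APP change with them was −1.41 ± 0.36 (SE). That fit shares its estimate of the spread with the WT libraries, which the title numbers pair differently. With limma voom and the pair as a random effect, the averaged Igf1 change was −1.24 ± 0.37 (adjusted p = 0.150), not past the threshold. The adjusted p of that fit was 0.372 in APP and 0.727 in WT.

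Libraries 57 to 60, the lowest in macrophage markers, were also the lowest in Igf1. They had 28.6 to 140 CPM, below all 15 other libraries at 196 to 992 CPM, a separation that 2.18% of all genes tested showed. Among the 15 others, library 9 was highest in both, with a marker sum of 10721 CPM and 992 CPM of Igf1. Vehicle library 3, however, had a marker sum of 6305 CPM and 752 CPM of Igf1, and vehicle library 51 had 8708 CPM and 537 CPM. The summed macrophage markers were also lower with LPS than with vehicle in 9 of 9 pairs, at 65.7 to 90.8% of the vehicle library with a median of 84.0%, and the paired fit called 7 of the 18 markers lower and 0 higher with LPS, where it called 0.697% of all genes lower. Other markers moved too: the astrocyte sum was lower in 8 of 9 pairs, at a median of 84.2% of vehicle, with 1 of 8 markers called lower. The border-associated macrophage sum was lower in 6 of 9 pairs, at a median of 84.5%, and the endothelial sum in 6 of 9, at 79.9%. The oligodendrocyte sum was lower in 7 of 9 pairs, at 94.5%, and the neuronal sum in 6 of 9, at 94.6%. The fibroblast, pericyte and smooth muscle sum was lower in 4 of 9 pairs, at a median of 100.5%, with 2 of 11 tested markers called lower and 1 higher. Per 1000 CPM of the summed macrophage markers, Igf1 was again lower with LPS in 9 of 9 pairs, at a median of 49.9% of vehicle, but at 99.4% in libraries 41 and 42. On that scale vehicle libraries 57 and 59 had 35.5 to 38.9 CPM and the other vehicle libraries 61.6 to 119 CPM, so they were low by that measure as well. This scale holds for the sum, and single markers differed. The mean log2 change within pairs was −1.45 for Cx3cr1 and −1.31 for Trem2, against −1.25 for Igf1. It was 0.21 for Itgam and 0.19 for Spi1. Mrc1, a border-associated macrophage marker, was at −1.29. Averaged over genotypes in the group fit, 14 of the 18 markers were below 0 and 4 above. The part of the marker levels in the Igf1 change was not tested beyond these values.

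**Figure D2:**
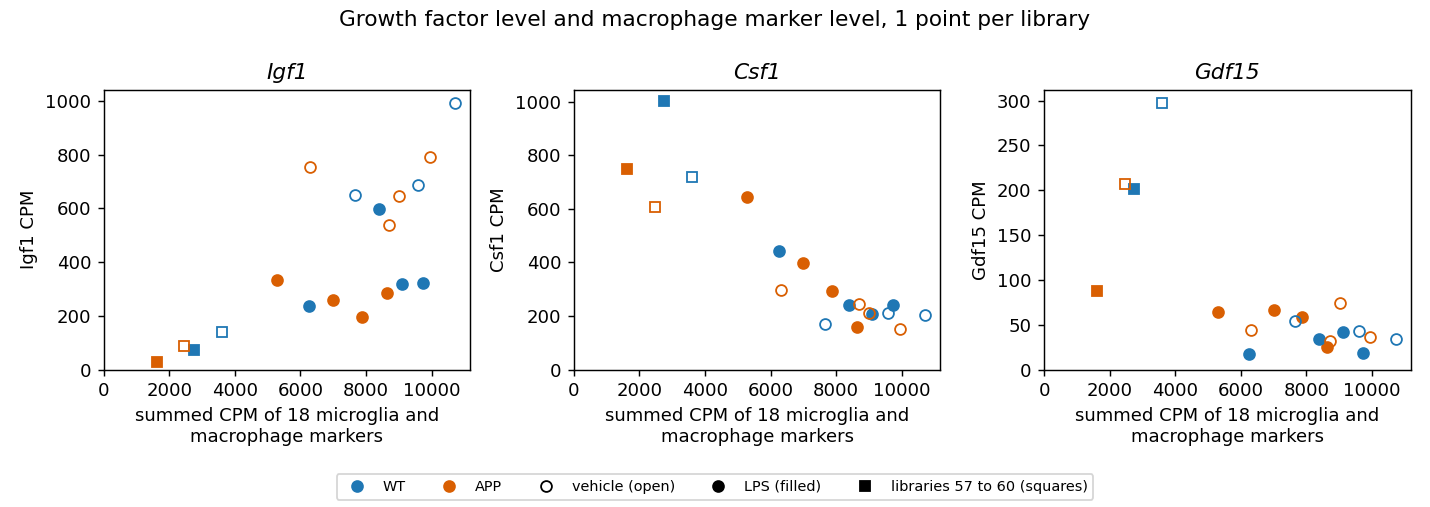
Level of Igf1, Csf1 and Gdf15 in each of the 19 libraries (vertical axes, CPM) against the summed level of 18 microglia and macrophage markers (horizontal axis, CPM). Open points are vehicle, filled points LPS, blue WT, orange APP, and squares libraries 57 to 60, which have the lowest marker sums, the lowest Igf1 and the highest Gdf15.

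Across the 19 libraries Igf1 varied 34.7-fold between its lowest and highest level, the widest range of the 8 genes. That rank rests on libraries 57 to 60. In the 15 others Igf1 ran from 196 to 992 CPM, and Tgfb1 had a wider range in fold, from 26.4 to 412 CPM. The within-group SD of Igf1 over the 19 libraries was 1.30 on the log2 scale, at percentile 56.6 of the genes tested, against a median of 0.976. The genes whose log2 CPM followed it most closely, among 8240 genes with a mean of at least 10 CPM, were Itm2b (Pearson r = 0.956), Cd84 (0.955), Cadm1 (0.949), Slc39a8 (0.939) and Lpl (0.928), the last encoding lipoprotein lipase. Over the 15 libraries without 57 to 60 these r were 0.822, 0.814, 0.908, 0.790 and 0.766. These libraries share their cultures' makeup and treatment, and the r are descriptions.

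The other genes of the insulin-like growth factor pathway did not pass the test. Of 10 measured binding proteins and their regulators, which hold the factor or release it, 0 were called higher or lower by either fit, with a median log2 change of −0.17 in the paired fit against −0.04 over all genes. Igfbp2, a binding protein, was lower with LPS in 9 of 9 pairs at −0.43 ± 0.11 (SE; adjusted p = 0.0712). Igfbp4, another binding protein, was at −0.44 ± 0.13 (adjusted p = 0.131), and Pappa, a protease that cleaves it, at −0.42 ± 0.29 (adjusted p = 0.813). The receptor gene Igf1r was at −0.04 ± 0.12 (adjusted p = 0.991), and was lower in 5 pairs and higher in 4.

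Csf1 was the reverse of Igf1 in direction: it was higher with LPS in 9 of 9 pairs. In APP it went from 297 to 642 CPM in libraries 3 and 4, from 213 to 293 in 7 and 8, from 152 to 159 in 11 and 12, from 244 to 399 in 51 and 52, and from 606 to 747 in 59 and 60. In WT it went from 204 to 241 CPM in libraries 9 and 10, from 169 to 442 in 21 and 22, from 212 to 240 in 41 and 42, and from 720 to 1001 in 57 and 58, with 208 in the unpaired WT LPS library. The step was small in libraries 11 and 12 and large in 3 and 4 and in 21 and 22, and 0.949% of all genes tested were higher in all 9 pairs.

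Csf1 rose 1.46-fold in the paired fit averaged over genotypes (log2 change 0.55 ± 0.13, SE; adjusted p = 0.0318), a call in the direction that 0.796% of all genes shared. With limma voom and the pair as a random effect it was 0.51 ± 0.26 (adjusted p = 0.455), not past the threshold. Within a genotype it did not pass, at 0.53 ± 0.17 (adjusted p = 0.249) in APP and 0.56 ± 0.19 (adjusted p = 0.608) in WT. The averaged call was lost in 5 of the 9 fits that left out 1 pair: without libraries 3 and 4 (adjusted p = 0.0687), 7 and 8 (0.0888), 21 and 22 (0.108), 51 and 52 (0.0775) or 57 and 58 (0.0545). The groups overlapped, with 327 ± 263 CPM (SD, n = 4) in WT vehicle, 426 ± 334 (n = 5) in WT LPS, 302 ± 178 (n = 5) in APP vehicle and 448 ± 243 (n = 5) in APP LPS libraries, and the group fit gave 0.48 ± 0.36 (adjusted p = 1.00) averaged over genotypes. Libraries 57 to 60 had 606 to 1001 CPM of Csf1 and the 15 others 152 to 642 CPM, so the libraries with the fewest macrophage marker counts were among the highest for Csf1, and the part of that in the LPS change was not tested.

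The receptor of this factor, Csf1r, was at a log2 change of −0.08 ± 0.13 (SE; adjusted p = 0.965) in the paired fit. Among the genes ranked by likeness, Plscr1, Birc2 and Hsp90aa1 followed Csf1 most closely, with r of 0.922, 0.884 and 0.878 over 19 libraries and 0.871, 0.781 and 0.682 over the 15 without 57 to 60.

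Tgfb1 was higher with LPS in 7 of 9 pairs, but did not pass the test. Its APP pairs went from 64.1 to 89.2 CPM in libraries 3 and 4, from 65.4 to 99.2 in 7 and 8, from 26.4 to 77.3 in 11 and 12, from 187 to 412 in 51 and 52, and from 76.3 to 72.0 in 59 and 60. Its WT pairs went from 28.8 to 115 CPM in libraries 9 and 10, from 140 to 180 in 21 and 22, from 88.9 to 114 in 41 and 42, and from 59.6 to 59.3 in 57 and 58, with 124 in the unpaired WT LPS library. The exceptions were the pairs 57 and 58 and 59 and 60, in which its level hardly moved. Group means were 79.2 ± 47.1 CPM (SD, n = 4) in WT vehicle, 118 ± 42.9 (n = 5) in WT LPS, 83.8 ± 60.5 (n = 5) in APP vehicle and 150 ± 147 (n = 5) in APP LPS libraries, and their ranges overlapped.

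The paired fit gave Tgfb1 a log2 change of 0.70 ± 0.19 (SE; adjusted p = 0.0846) averaged over genotypes, and the group fit 0.71 ± 0.38 (adjusted p = 0.856). Without libraries 57 to 60 the paired value was 0.91 ± 0.19 (adjusted p = 0.00952), in a fit that called 2% of all genes averaged over genotypes, 0.228% in WT and 1.2% in APP; leaving out those libraries was chosen after the data had been seen. Without libraries 57 and 58 alone the adjusted p was 0.0453, and without 59 and 60 alone it was 0.0283.

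Genes that hold Tgfb1 protein latent or release it, and genes that respond to it, were counted beside it. Of 11 tested latency and activation genes and 12 response genes, 0 were called in either direction by either fit, with paired medians of 0.03 and −0.03. Mmp14, a membrane protease, was at 0.47 ± 0.13 (SE; adjusted p = 0.0730), and Thbs1, which encodes the activator thrombospondin 1, at 0.38 ± 0.11 (adjusted p = 0.102). Itgb8, a subunit of an activating integrin, was at 1.14 ± 0.73 (adjusted p = 0.775). Of the response genes, Tgif1, a co-repressor, was at 0.36 ± 0.16 (adjusted p = 0.438), and Ski, also a repressor of this pathway, at −0.23 ± 0.16 (adjusted p = 0.814). The receptor subunit gene Tgfbr2 was at −0.47 ± 0.13 (adjusted p = 0.105). Cox14, Dennd5b and Fry were the genes most like Tgfb1, with r of 0.841, 0.835 and 0.832.

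The platelet-derived growth factor genes Pdgfa and Pdgfb, whose products drive pericytes and oligodendrocyte precursors, differed in pattern. Pdgfb was lower with LPS in 7 of 9 pairs, in 5 of 5 from APP and 2 of 4 from WT. The APP pairs had steps of Pdgfb from 84.3 to 38.4 CPM in libraries 3 and 4, from 106 to 50.01 in 7 and 8, from 65.1 to 47.0 in 11 and 12, from 67.0 to 60.2 in 51 and 52, and from 12.5 to 12.4 in 59 and 60. The WT pairs had steps from 103 to 49.4 CPM in libraries 9 and 10, from 87.0 to 68.7 in 21 and 22, from 76.7 to 81.1 in 41 and 42, and from 19.9 to 27.8 in 57 and 58, with 67.4 in the unpaired WT LPS library. The steps down were largest in libraries 3 and 4, 7 and 8, and 9 and 10, and there was almost none in 59 and 60.

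The log2 change of Pdgfb in the paired fit was −0.57 ± 0.24 (SE; adjusted p = 0.523) in APP and −0.39 ± 0.18 (adjusted p = 0.498) averaged over genotypes, so it did not pass the threshold. Like Igf1, it was lower in libraries 57 to 60, at 12.4 to 27.8 CPM, than in all 15 others, at 38.4 to 106 CPM, as were 2.18% of all genes tested. Without those libraries its ranges in APP did not overlap, at 65.1 to 106 CPM with vehicle and 38.4 to 60.2 CPM with LPS, as for 1.93% of all genes in that direction. In WT they overlapped, at 76.7 to 103 CPM with vehicle and 49.4 to 81.1 CPM with LPS. Lair1 and Ehd4 were among the genes that followed it most closely, with r of 0.941 and 0.932 over the 19 libraries and 0.639 and 0.714 over the 15.

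Pdgfa had the narrowest spread of the 8 genes, with a 2.94-fold range over the libraries and a within-group SD of 0.41 on the log2 scale, at percentile 15.1 of the genes tested. Pdgfa went in APP from 120 to 124, from 109 to 87.1, from 73.6 to 42.0, from 97.7 to 104 and from 107 to 75.4 CPM, in the order of library numbers. Pdgfa went in WT from 56.6 to 74.3, from 96.3 to 109, from 80.7 to 67.6 and from 91.7 to 112 CPM, with 85.3 in the unpaired WT LPS library. It was thus higher in 5 pairs and lower in 4, and the paired fit gave −0.07 ± 0.13 (SE; adjusted p = 0.970). The change differed between the genotypes by −0.45 ± 0.26 (adjusted p = 1), with 3 of 4 WT pairs higher and 3 of 5 APP pairs lower. Cpq, Scd1 and Dkk3 were the genes most like Pdgfa, with r of 0.854, 0.842 and 0.838.

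Vegfa, which encodes the main growth factor of blood vessels and is known to be induced when oxygen is low, went both ways. In APP it went from 55.1 to 86.3, from 58.0 to 114, from 70.7 to 77.3, from 124 to 101 and from 243 to 220 CPM, in the order of library numbers. In WT it went from 88.4 to 71.9, from 111 to 152, from 94.8 to 96.3 and from 175 to 160 CPM, with 71.1 in the unpaired WT LPS library. It was higher with LPS in 5 pairs and lower in 4, at 0.14 ± 0.14 (SE; adjusted p = 0.913) in the paired fit. The larger contrast lay between libraries: 57 to 60 had 160 to 243 CPM and all 15 others 55.1 to 152 CPM, a separation upwards that 1.28% of all genes tested showed.

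Of 17 genes known to respond to low oxygen, 0 were called by either fit, with a paired median of 0.14. Hif1a, the oxygen-regulated transcription factor, was higher in 8 of 9 pairs, as at least 8 were for 3.88% of all genes, at 0.54 ± 0.13 (SE; adjusted p = 0.0533). Pfkfb3 and Ldha, both of glycolysis, were at 0.40 ± 0.14 (adjusted p = 0.229) and 0.25 ± 0.09 (adjusted p = 0.276). Wdr43, Dut and Mtbp followed Vegfa most closely, with r of 0.896, 0.894 and 0.863 over the 19 libraries and 0.742, 0.703 and 0.595 over the 15. Of the receptor genes of Vegfa, Nrp1, the co-receptor neuropilin 1, fell in the paired fit by 0.99 ± 0.17 on the log2 scale (adjusted p = 0.00408) and was lower in 8 of 9 pairs, as at least 8 were for 4.29% of all genes. It was the 1 gene called among 19 tested receptor genes of these factors, where 0.697% of all genes were called lower. Flt1, a Vegfa receptor, was at −0.52 ± 0.32 (adjusted p = 0.757). The group fit gave Nrp1 −1.07 ± 0.24 (adjusted p = 0.149).

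Hbegf, which encodes a membrane-bound ligand of the epidermal growth factor receptor, showed no common direction. Hbegf went in APP from 157 to 99.7, from 61.7 to 88.0, from 58.2 to 48.2, from 55.0 to 56.6 and from 71.9 to 101 CPM, in the order of library numbers. Hbegf went in WT from 95.3 to 53.1, from 74.9 to 104, from 47.2 to 50.2 and from 89.7 to 90.1 CPM, with 78.8 in the unpaired WT LPS library. It was higher with LPS in 6 pairs and lower in 3, and the paired fit gave −0.02 ± 0.16 (SE; adjusted p = 0.999). The genes most like Hbegf were Tgfb2, Map3k20 and Smad5, with r of 0.854, 0.845 and 0.842 over the 19 libraries and 0.851, 0.876 and 0.906 over the 15.

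Of 11 tested genes of shedding, the step that frees such ligands from the membrane, 0 were called by either fit. Adam10, a sheddase, was lower in 9 of 9 pairs at −0.37 ± 0.09 (SE; adjusted p = 0.0580). Cd9, which binds membrane-bound Hbegf, was at −0.46 ± 0.15 (adjusted p = 0.177), and Adam9, also a metalloprotease, at −0.26 ± 0.12 (adjusted p = 0.488). Among 25 tested other growth factor ligands, 1 was called higher by the paired fit and 0 lower, against 0.796% and 0.697% of all genes. It was Ereg, epiregulin, another ligand of the epidermal growth factor receptor, with a log2 rise of 1.36 ± 0.19 (adjusted p = 7.13e-04), and it was higher in 9 of 9 pairs. The group fit gave Ereg 0.97 ± 0.41 (adjusted p = 0.737). Lif, a cytokine of the interleukin-6 family, was at 2.02 ± 0.58 (adjusted p = 0.105) in the paired fit.

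Gdf15, a stress-induced member of the transforming growth factor beta superfamily, was lower with LPS in 7 of 9 pairs, in 4 of 4 from WT and 3 of 5 from APP. In APP it went from 44.7 to 64.5 CPM in libraries 3 and 4, from 74.2 to 58.8 in 7 and 8, from 36.1 to 25.1 in 11 and 12, from 31.5 to 66.6 in 51 and 52, and from 207 to 87.8 in 59 and 60. In WT it went from 33.6 to 19.04 CPM in libraries 9 and 10, from 53.8 to 17.8 in 21 and 22, from 43.2 to 33.8 in 41 and 42, and from 298 to 202 in 57 and 58, with 41.5 in the unpaired WT LPS library. Libraries 57 to 60 held the 4 highest values, at 87.8 to 298 CPM against 17.8 to 74.2 CPM in the 15 others. Of all genes tested, 1.28% were separated in that direction.

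The paired fit gave Gdf15 a log2 change of −0.83 ± 0.30 (SE; adjusted p = 0.684) in WT, −0.10 ± 0.27 (adjusted p = 0.978) in APP and −0.47 ± 0.20 (adjusted p = 0.440) averaged over genotypes, none past the threshold. Without libraries 57 to 60 the paired value in APP was 0.18, above 0. Of 15 genes of the integrated stress response and of p53, the known inducers of Gdf15, 1 was called higher and 0 lower by the paired fit, against 0.796% and 0.697% of all genes, with a median log2 change of 0.13 against −0.04 over all genes. It was Slc7a11, the cystine transporter, with a log2 rise of 0.96 ± 0.15 (adjusted p = 0.00150), and it was higher in 9 of 9 pairs; the group fit gave it 0.70 ± 0.42 (adjusted p = 0.931). Phgdh, an enzyme of serine synthesis, was at −0.53 ± 0.37 (adjusted p = 0.812), and Nupr1, a stress-induced nuclear protein, at 0.20 ± 0.16 (adjusted p = 0.858). Ddr2, Clic4 and Klf4 followed Gdf15 most closely, with r of 0.848, 0.825 and 0.822 over the 19 libraries and 0.571, 0.578 and 0.387 over the 15.

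**Figure D3:**
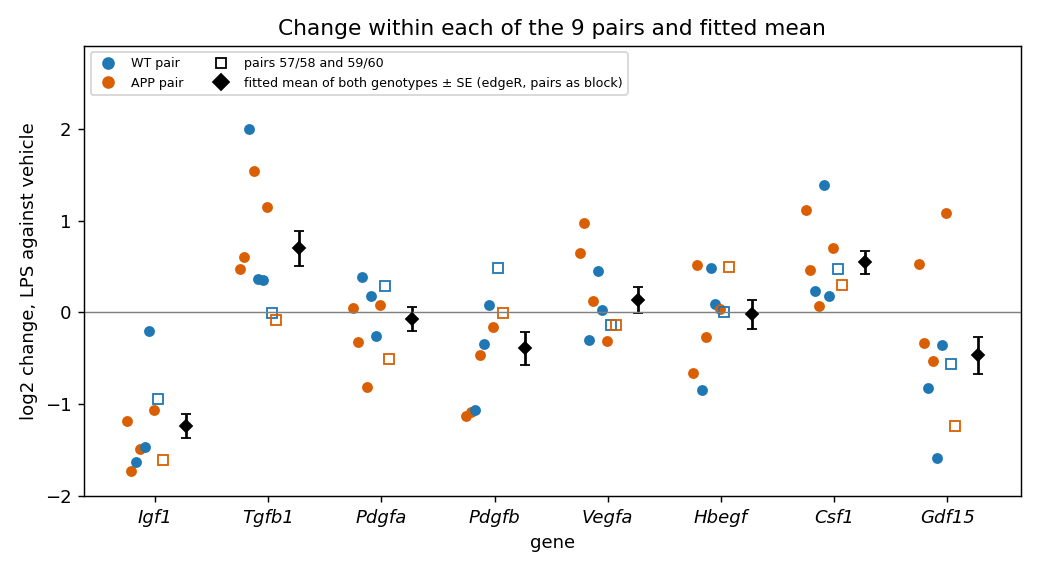
Log2 change with LPS of each growth factor gene (vertical axis) in each of the 9 pairs, with WT in blue, APP in orange and open squares for libraries 57 to 60. Black diamonds with bars are the paired fit averaged over genotypes ± SE, at −1.24 ± 0.13 for Igf1 and 0.55 ± 0.13 for Csf1, the 2 genes called.

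Inflammatory genes gave the size of the LPS response against which the growth factors can be read. Of 20 of them, the paired fit called 16 higher and 0 lower, against 0.796% and 0.697% of all genes, with a median log2 change of 1.66, and the group fit called 2, Il1b and Tnf. In the paired fit the log2 rise was 3.63 ± 0.34 for Il1b (SE; adjusted p = 2.12e-05), 2.70 ± 0.39 for Acod1 (adjusted p = 8.68e-04) and 1.57 ± 0.20 for Tnf (adjusted p = 2.62e-04). The Igf1 change of −1.24 was smaller in size than those of these 3 genes and than the median of the 20. The Csf1 change of 0.55 was smaller still. The 3 genes are those of the list with the smallest unadjusted p in the group fit. Others of the 20 moved less than Igf1, such as Nfkbia, at a mean log2 change within pairs of 1.00 against −1.25 for Igf1. These differences in size were not tested.

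**Figure D4:**
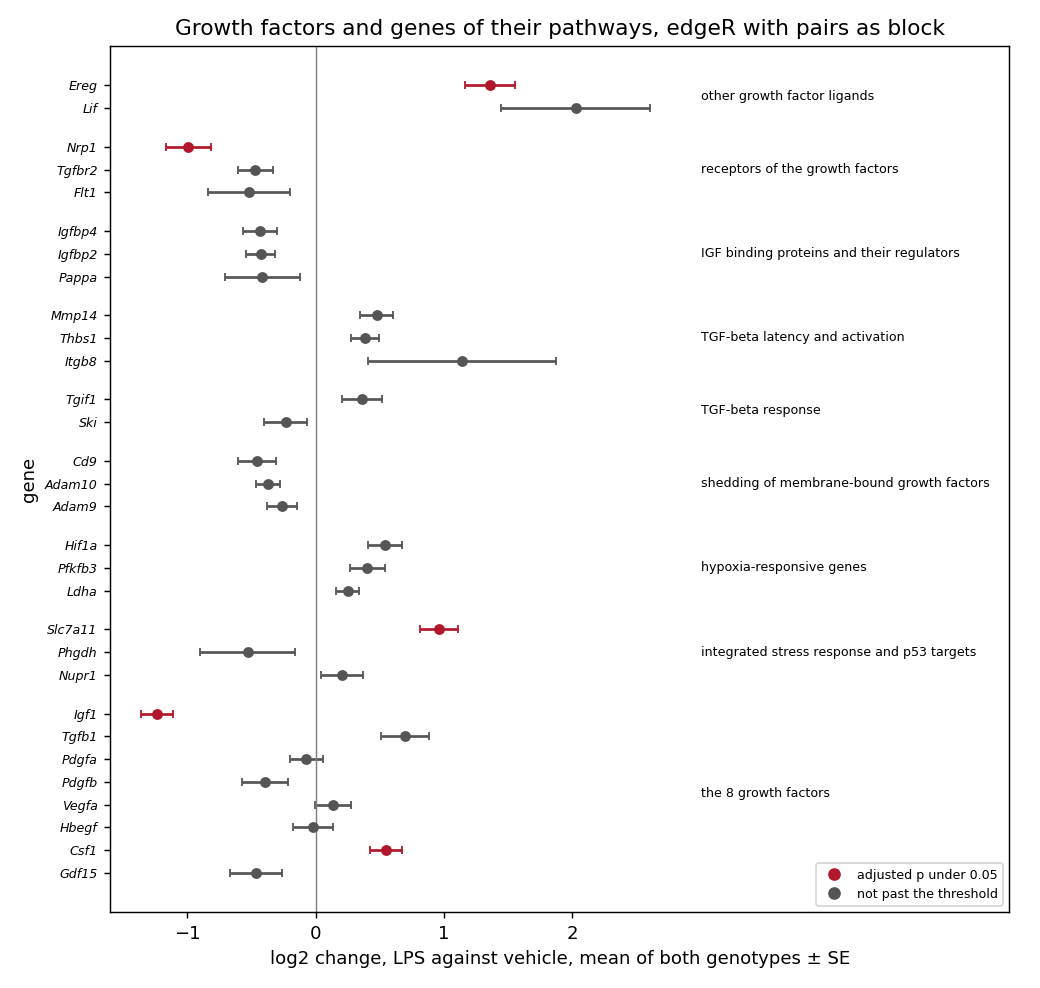
Log2 change with LPS averaged over genotypes in the paired fit (horizontal axis, points ± SE) for the 8 growth factor genes and for the genes of each pathway list with the smallest unadjusted p in the group fit (vertical axis, up to 3 per list, grouped; those left out of the text are not drawn). Red points have an adjusted p under 0.05: Ereg, Nrp1, Slc7a11, Igf1 and Csf1.

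Between APP and WT none of the 8 genes was called, and their ranges overlapped in both treatments. With vehicle the log2 differences of APP from WT ran from −0.44 to 0.32, and after LPS from −0.50 to 0.34, with an adjusted p of 1 for every one of the 8 genes. For all genes tested, 0% were called in either comparison by the group fit, 2.85% with vehicle and 3.42% after LPS had an unadjusted p under 0.05, and 0.843% and 0.496% had ranges that did not overlap. DESeq2 called 64 genes with vehicle and 69 after LPS, none of them among the 8. The Igf1 means were 617 ± 353 CPM (SD, n = 4) in WT and 562 ± 284 (n = 5) in APP with vehicle, a difference well within the spread of either group. The difference between the LPS responses of the genotypes ran from −0.40 to 0.39 over the 8 genes in the group fit, with 0% of all genes called and 2.73% at an unadjusted p under 0.05; DESeq2 called 99 genes, again none of the 8. The genotype comparisons cannot be made within pairs, because each pair holds 1 genotype.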

How the data were processed

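RNA came from 19 libraries of cultured mouse microglia. QuantSeq 3′ libraries with molecular identifiers were made from RNA of integrity over 8.5 and read as 100-base single ends, per the labels' protocols. Per the submitters' processing notes, the authors used FastQC, Trimmomatic, kallisto and DESeq2. The deposited files hold estimated counts for gene symbols, whole numbers already. The build, the versions and any collapsing of identifiers were not given in the sources used here. Reads near the 3′ end do not allow levels of different genes to be compared per length, so none were.

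CPM were computed here from library totals scaled by TMM. Groups came from titles and library numbers from the labels. WT LPS replicate 1 is labelled 5, while its file says 6. None of 36 pairings within groups looked like copies, with a chi-square per degree of freedom of at least 82.8. The main test was edgeR's quasi-likelihood test (edgeR 4.0.16, limma 3.58.1, R 4.3.3) with 1 coefficient per group over 19 libraries. filterByExpr left out 2828 of 16941 genes, and Benjamini-Hochberg adjustment ran over the 14113 others with a threshold of 0.05. The paired fit added the library pair as a block, dropped WT LPS replicate 1 and tested 14068 genes. It is printed beside the main fit because it changed calls. In APP the numbers paired the libraries by the check given in the report. Over both genotypes, 17 of 18 libraries correlated best with their own partner, among libraries of the same genotype under the other treatment only. The highest r, 0.292 and 0.352, were those of libraries 57 and 58 and 59 and 60, which stood apart in marker levels. In WT, pairs of title replicate numbers had r of −0.09 to 0.07, so library numbers were used, although 1 WT pair was under the limit.

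The members and the lists were chosen with earlier results of these data known. Named genes were the 8 members, up to 3 genes per list with the smallest unadjusted p in the averaged LPS comparison of the main fit, and the 5 (Igf1) or 3 genes most like a member by Pearson r of log2 CPM with a prior count of 2. Csf3, named by that rule, is given no value because it was at 0 in several vehicle libraries, and 2 other genes that the rule names are not reported here. Nrp1 and other receptor genes come from the same rule, and Igf1r and Csf1r were added as the receptors of the called genes. Promoter letters came from RefSeq. Alternatives were DESeq2 1.42.0, other scalings and filters, limma voom with the pair as a random effect, and libraries or pairs left out.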

Additional observations from a re-analysis of the deposited data

Results flagged for a closer look

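Of the 32 groups formed by 8 genes and 4 groups of libraries, 7 held a library far from the others, by the gap to its nearest neighbour as a share of the group's range. For normally distributed values chance flags about 1 in 20 groups; that rate was not checked for these CPM, and all 7 values are high ones. The Tgfb1 level was 412 CPM in APP LPS replicate 4 (library 52), where the next highest of that group had 99.2 CPM. Its partner, library 51, also had the highest Tgfb1 of its group, at 187 CPM. Hbegf was 157 CPM in APP vehicle replicate 1 (library 3), with 71.9 CPM the next highest.

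The other 5 were libraries 57 to 60. Gdf15 was 298 CPM in WT vehicle replicate 4 against 53.8 CPM next to it, 202 CPM in WT LPS replicate 5 against 41.5 CPM, and 207 CPM in APP vehicle replicate 5 against 74.2 CPM. Csf1 was 720 CPM in WT vehicle replicate 4 against 212 CPM, and Vegfa was 220 CPM in APP LPS replicate 5 against 114 CPM. These 4 libraries had the lowest macrophage marker sums of the 19, and the part of that in their growth factor levels was not tested.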

How the results depend on the processing

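The main fit called none of the 8 genes in 6 comparisons, and this held under no filter on low counts, DESeq2's size factors, DESeq2, limma voom with the pair as a random effect, the 2 compared groups fitted alone, and each library left out in turn. The replicate block of consecutive library numbers changed it: 1 gene was called in WT and 1 in APP, Igf1 in both, and 2 averaged over genotypes, Igf1 and Csf1. With 1 pair left out of that fit, the count of the 8 genes called was 0 to 1 in WT, 1 in APP, and 1 to 3 averaged over genotypes, while it was 0 in each fit without the block that left out 1 library. Without libraries 57 to 60, 1 gene, Igf1, was called averaged over genotypes, and with the block as well 1 was called in WT, 1 in APP, and 3 averaged (Igf1, Csf1 and Tgfb1). With the block and each genotype alone, 1 was called in APP, Igf1, and 0 in WT. The last 2 settings were chosen after seeing the data. The pairing changed no other call among the 8 genes. With title replicate numbers, which keep the APP pairs but do not pair the WT libraries, none of the 8 was called. The count over all genes averaged over genotypes was 3 in the main fit, 4 with no filter, 178 with DESeq2, 68 with voom, 210 with the block and 31 without libraries 57 to 60. Within a genotype it was 0 in the main fit, and 3 in WT and 9 in APP with voom, 20 and 82 with the block, and 89 and 76 with DESeq2. The cause of these differences between fits was not tested.

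Log2 differences that were not called changed sign under some settings, and their values there follow. With DESeq2's size factors in edgeR it was 0.014 for Hbegf (the LPS responses between genotypes). With DESeq2 it was 0.014 for Hbegf (the LPS responses between genotypes). With limma voom and the pair as a random effect it was 0.034 for Hbegf (LPS in APP), 0.10 for Csf1 (APP from WT with vehicle), −0.020 for Tgfb1 and 0.51 for Gdf15 (APP from WT after LPS), −0.074 for Tgfb1 and 0.072 for Hbegf (the LPS responses between genotypes). With the replicate block of library numbers it was 0.012 for Vegfa (LPS in WT), 0.024 for Hbegf (LPS in APP), 0.089 for Hbegf and −0.033 for Csf1 (the LPS responses between genotypes). With the replicate block of title numbers it was 0.052 for Pdgfb (LPS in WT), 0.024 for Hbegf (LPS in APP). Without libraries 57 to 60 it was 0.20 for Gdf15 (LPS in APP), 0.22 for Csf1 and 0.10 for Gdf15 (APP from WT with vehicle), 0.088 for Pdgfa, −0.046 for Vegfa and 0.95 for Gdf15 (APP from WT after LPS). With the block and without libraries 57 to 60 it was 0.059 for Vegfa (LPS in WT), 0.18 for Gdf15 (LPS in APP), −0.0087 for Csf1 (the LPS responses between genotypes). With the block and each genotype fitted alone it was 0.014 for Vegfa (LPS in WT), 0.029 for Hbegf (LPS in APP). With 1 library or 1 pair left out, the sign turned for the following, given as their lowest and highest values. For the difference of LPS in WT they ran from −0.59 to 0.072 for Pdgfb, −0.26 to 0.19 for Vegfa, −0.24 to 0.19 for Hbegf, −0.21 to 1.15 for Csf1 and −1.93 to 0.56 for Gdf15. For the difference of LPS in APP they ran from −0.22 to 0.64 for Vegfa, −0.15 to 0.35 for Hbegf and −0.58 to 0.38 for Gdf15. For the difference of LPS averaged over genotypes they ran from −0.13 to 0.042 for Pdgfa, −0.15 to 0.27 for Vegfa, −0.13 to 0.16 for Hbegf and −1.16 to 0.087 for Gdf15. For the difference of the LPS responses between genotypes they ran from −0.70 to 0.014 for Igf1, −0.57 to 0.79 for Tgfb1, −0.13 to 0.73 for Vegfa, −0.17 to 0.38 for Hbegf, −0.59 to 0.78 for Csf1 and −0.94 to 1.56 for Gdf15. For the difference of APP from WT with vehicle they ran from −0.46 to 0.20 for Igf1, −0.45 to 0.51 for Tgfb1, −0.40 to 0.17 for Pdgfb, −0.61 to 0.18 for Vegfa, −0.32 to 0.19 for Hbegf, −0.53 to 0.65 for Csf1 and −1.20 to 0.87 for Gdf15. For the difference of APP from WT after LPS they ran from −0.49 to 0.54 for Tgfb1, −0.22 to 0.12 for Pdgfa, −0.22 to 0.29 for Vegfa, −0.055 to 0.21 for Hbegf, −0.19 to 0.67 for Csf1 and −0.29 to 1.11 for Gdf15. The counts of the 8 genes were at least 270 in every library. Whether molecular identifiers had been collapsed in these counts was not given, and the part of depth in the results was not tested.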
